A study of Mus musculus with 3 samples.

Results

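The genes described here are the mouse zinc finger genes whose symbol is Zfp followed by 3 digits, with Zfp352 left out, read in embryonic stem (ES) cells of the R1 line. They were chosen by symbol alone, among genes whose probe sets list a single symbol. The rule found 268 genes of 19057 measured. R1 is a mouse ES cell line of strain 129, and the values come from Affymetrix Mouse Gene 1.0 ST arrays, 1 for each of 3 biological repeats, on which probes along the exons of a gene share its signal. The repeats form 1 group, R1 ES cells with no treatment or genetic change named in the labels, so the values show which of these genes gave signal and how far the repeats differed. The labels do not say how the cultures were kept.

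Most zinc fingers of this kind are C2H2 fingers, short loops held by a zinc ion in which a few side chains read bases of DNA, and a row of fingers reads a longer site. Many of the genes carry in addition a KRAB box, which binds the corepressor Trim28, and Trim28 brings the histone H3 lysine 9 methyltransferase Setdb1 and heterochromatin proteins to the bound site. In ES cells this pathway is known for silencing endogenous retroviruses and for keeping methylation at imprinted genes. Other genes with such a symbol have no KRAB box and act as activators, in corepressor complexes or on RNA and ribosomes. Genes with a KRAB box have multiplied by local duplication and often lie side by side, with copies alike enough that a probe can read more than one of them.

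Signal was set against background. A gene was called above background where its log2 intensity exceeded, on each of the 3 arrays, the 95th percentile of the 1170 genes of the olfactory and vomeronasal receptor families, which lay at 4.72, 4.60 and 4.61 in repeats 1, 2 and 3. A gene under this cutoff was not shown to be silent. Median probe set intensity was 47.8, 46.7 and 46.8. All 7 ES cell markers analysed were above background, among them Pou5f1, Sox2 and Nanog. Of 10 fibroblast markers 9 were above background, the exception being Lum. Their summed intensity was 2194, 3849 and 2207 in repeats 1, 2 and 3. It was highest in repeat 2. In such bulk RNA fewer cells of a type and less RNA per cell cannot be told apart. Nor can it be told which cells of a sample gave the signal of a gene. Of 6 primitive endoderm markers 2 were above background (Gata4 and Gata6), and of 4 blood cell markers none was.

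Most of the three-digit Zfp genes gave signal in the RNA of the R1 ES cell samples. Of the 268 genes 225 (84%) were above background on all 3 arrays, against 71.4% of the 17887 genes outside the receptor families. A further 8 were above it on 1 or 2 arrays and 35 on none. Among the 225 the mean log2 intensity ran from 4.77 to 9.92 with a median of 6.46, against a median of 6.79 over all 12820 genes above background. The excess over other genes depended on the families that set the background. At the 99th percentile of the receptor genes 181 of the 268 (67.5%) passed, against 55.0% of genes outside the receptor families. With keratin-associated, cornified envelope, defensin, taste receptor and Klra genes as background, whose cutoff averaged 6.24 on the log2 scale, 119 (44.4%) passed, against 42.0%, which is close to the share of all genes. All 41 ZBTB genes, which pair zinc fingers with a BTB domain, were above the main cutoff, and this difference was not tested.

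**Figure D1:**
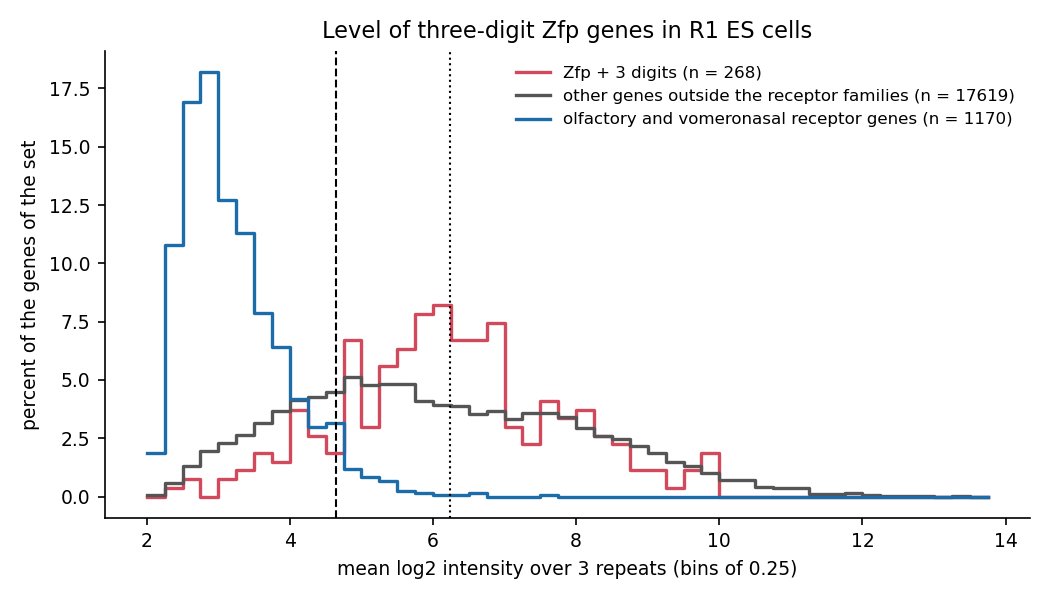
Percent of each gene set (vertical axis) by mean log2 intensity over 3 repeats (horizontal axis, bins of 0.25): three-digit Zfp genes, other genes outside the receptor families, and the receptor genes. The dashed line is the mean of the main cutoffs (4.64) and the dotted line that of the cutoffs from other silent families (6.24); most three-digit Zfp genes lie right of the dashed line and many of them between the 2 lines.

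The share above background was also counted by the number in the symbol, in blocks of 23 to 43 genes. The share above background was highest for numbers 300 to 399, at 25 of 26 (96.2%), and for numbers 100 to 199, at 22 of 24 (91.7%). It was lowest for numbers 400 to 499, at 18 of 26 (69.2%), and for numbers 700 to 799, at 28 of 36 (77.8%). The most recent numbers, 900 to 999, stood at 28 of 34 (82.4%), near the 84% of all 268 genes. Of genes outside the receptor families 71.4% were above background. The blocks named were picked after the values were seen, their differences rest on few genes, and they were not tested.

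At the cutoff itself calls turned on small differences. Zfp952 read 4.76, 4.80 and 4.76 in repeats 1, 2 and 3, and cleared the cutoff by 0.035 on its nearest array. Zfp184 (4.76, 4.85 and 4.71) and Zfp174 (4.79, 4.73 and 4.81) were the next above it. Just below lay Zfp541, which missed by 0.057 on 1 array, Zfp748 (4.79, 4.85 and 4.54) and Zfp286 (4.65, 5.03 and 5.19). In 4 of these 6 genes the margin is smaller than the SD over repeats, so their calls could turn with another repeat. At the low end Zfp735, Zfp455 and Zfp616 had mean values of 2.49, 2.60 and 2.64, well under the cutoff in every repeat.

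All 7 analysed genes of a list for pluripotency and ES cell growth were above background, also with each of the higher cutoffs. With 84% of the 268 genes and 71.4% of genes outside the receptor families above the main cutoff, a count of 7 of 7 does not set the list apart. Zfp281, a factor of GC-rich sites that restrains Nanog through the NuRD complex, read 8.87, 9.04 and 8.91 in repeats 1, 2 and 3. Zfp462, which holds lineage genes of ES cells in heterochromatin, read 9.08, 9.02 and 9.15. Both were even between repeats, with SDs of 0.086 and 0.064. Zfp706, which favours exit from self-renewal in mouse ES cells, averaged 9.86 ± 0.070 (SD, n = 3). Zfp207, a partner of Bub3 in chromosome alignment on the spindle, averaged 9.86 ± 0.10. Zfp217, a member of corepressor complexes with the demethylase Kdm1a, averaged 7.31 ± 0.20, and the repressor Zfp219 averaged 7.98 ± 0.084. Zfp296, a gene known for its expression in ES and germ cells, was the least even of the list, at 8.35, 8.63 and 8.03. It was highest in repeat 2 and lowest in repeat 3.

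The list for silencing of retroelements and imprinted genes was read for 6 genes, of which 5 (83.3%) were above background, near the 84% of the 268 genes, against 71.4% of genes outside the receptor families. Zfp809, the KRAB protein that binds the primer binding site of murine leukaemia virus and recruits Trim28 there, read 8.41, 8.71 and 8.45 in repeats 1, 2 and 3. Zfp568, which represses a placental promoter of Igf2 in the embryo, read 9.29, 9.48 and 9.04. Repeat 2 was highest for both genes, by under 0.5 log2 units. Zfp819 averaged 6.46 ± 0.099 and Zfp202 averaged 5.82 ± 0.078 (SD, n = 3), the second of them under the higher cutoff from other silent families. Zfp600 stood at 8.14 in repeat 1, against 8.70 and 8.68 in repeats 2 and 3. Zfp708, which binds a rodent retroelement, was the exception of the list, at 4.25, 4.15 and 4.27, below background on every array. Zfp429, Zfp445, Zfp932 and Zfp992 were not analysed here under a symbol of their own.

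Partners of KRAB proteins in silencing, none of them a three-digit Zfp gene, were all detected. The 24 analysed were above background on all 3 arrays at every cutoff used, against 71.4% of genes outside the receptor families at the main cutoff. Trim28 averaged 12.03 ± 0.038 (SD, n = 3), and Setdb1 read 8.89, 9.03 and 8.96. Cbx1, Cbx3 and Cbx5, the heterochromatin protein 1 family, averaged 9.22, 9.75 and 9.65. The imprint regulator Zfp57, a KRAB protein with a two-digit symbol, averaged 11.22 ± 0.18 and was the least even of the 24, whose median SD was 0.077. Tasor (9.20), Morc2a (9.22) and Pphln1 (8.31), which act in or with the HUSH silencing complex, and the maintenance methyltransferase Dnmt1 (9.84) with its partner Uhrf1 (10.25) gave signal as well.

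Of 14 analysed genes known from differentiated tissues, 10 (71.4%) were above background, which equals the 71.4% of genes outside the receptor families and lies below the 84% of the three-digit Zfp genes. Zfp423, a partner of Ebf factors in fat precursors and cerebellum, read 7.87, 7.86 and 8.28 in repeats 1, 2 and 3, and was highest in repeat 3. Zfp105 (7.07 ± 0.091), known from testis, Zfp516 (6.81 ± 0.14), known from brown fat, and Zfp365 (6.68 ± 0.082), known from neurons, were above the higher cutoff from other silent families too (SD, n = 3 each). Zfp703 (6.29), Zfp750 (6.25), the epidermal factor known from human cells, Zfp469 (5.69), Zfp366 (5.54), known from dendritic cells, Zfp503 (5.20), a striatal factor, and Zfp488 (4.87), an oligodendrocyte factor, lay below that higher cutoff on at least 1 array. Zfp521, a cofactor in neural and blood precursors, read 4.48, 4.32 and 4.38, below the main cutoff on every array. Zfp536, a repressor of neuronal differentiation, did so too at 3.85, 3.57 and 3.80, as did Zfp467 at 4.44, 3.91 and 4.14. The meiotic gene Zfp541 passed on 2 arrays (4.83, 4.74 and 4.55). At the 99th percentile of the receptor genes 7 of the 14 (50%) passed, near the 55.0% of genes outside the receptor families. With the other silent families as background 4 (28.6%) passed, against 42.0%.

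All 8 analysed genes with work on RNA, ribosomes or proteins were above background, beside 84% of the 268 genes and 71.4% of genes outside the receptor families. Zfp598, the ubiquitin ligase that marks collided ribosomes, read 7.38, 7.37 and 7.64 in repeats 1, 2 and 3. Zfp622, whose yeast relative matures the large ribosomal subunit, averaged 8.23 ± 0.11 (SD, n = 3). Zfp593 was the most even of the list, at 6.90 ± 0.013. The RNA-binding protein Zfp638 read 8.82, 9.09 and 9.10, lowest in repeat 1, and Zfp106, which binds RNA too, averaged 9.69 ± 0.037. The splicing factors Zfp326 and Zfp830 averaged 6.16 ± 0.25 and 6.81 ± 0.10, and Zfp277 averaged 7.75 ± 0.041. Of the 8, Zfp326 alone failed the cutoff from other silent families on some arrays.

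Of the broadly acting chromatin and transcription factors 11 of 11 were above background at every cutoff used, beside 84% of the 268 genes and 71.4% of genes outside the receptor families at the main cutoff. Zfp644, a partner of the methyltransferase Ehmt2, averaged 8.59 ± 0.064, and Zfp609, a partner of the cohesin loader Nipbl, averaged 7.75 ± 0.16 (SD, n = 3 each). Zfp592 and Zfp687, which form one complex with Zmynd8, averaged 7.47 ± 0.081 and 7.53 ± 0.067. Zfp335, of a histone H3 lysine 4 methyltransferase complex, averaged 7.10 ± 0.059, and Zfp827, which brings NuRD to telomeres, averaged 6.90 ± 0.083. Zfp384 (8.17), Zfp318 (6.85), Zfp292 (8.60) and Zfp148 (8.07), a factor of GC-rich promoters, had SDs from 0.019 to 0.13. Zfp131 was the exception in spread, at 7.02, 7.42 and 6.74 in repeats 1, 2 and 3.

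**Figure D2:**
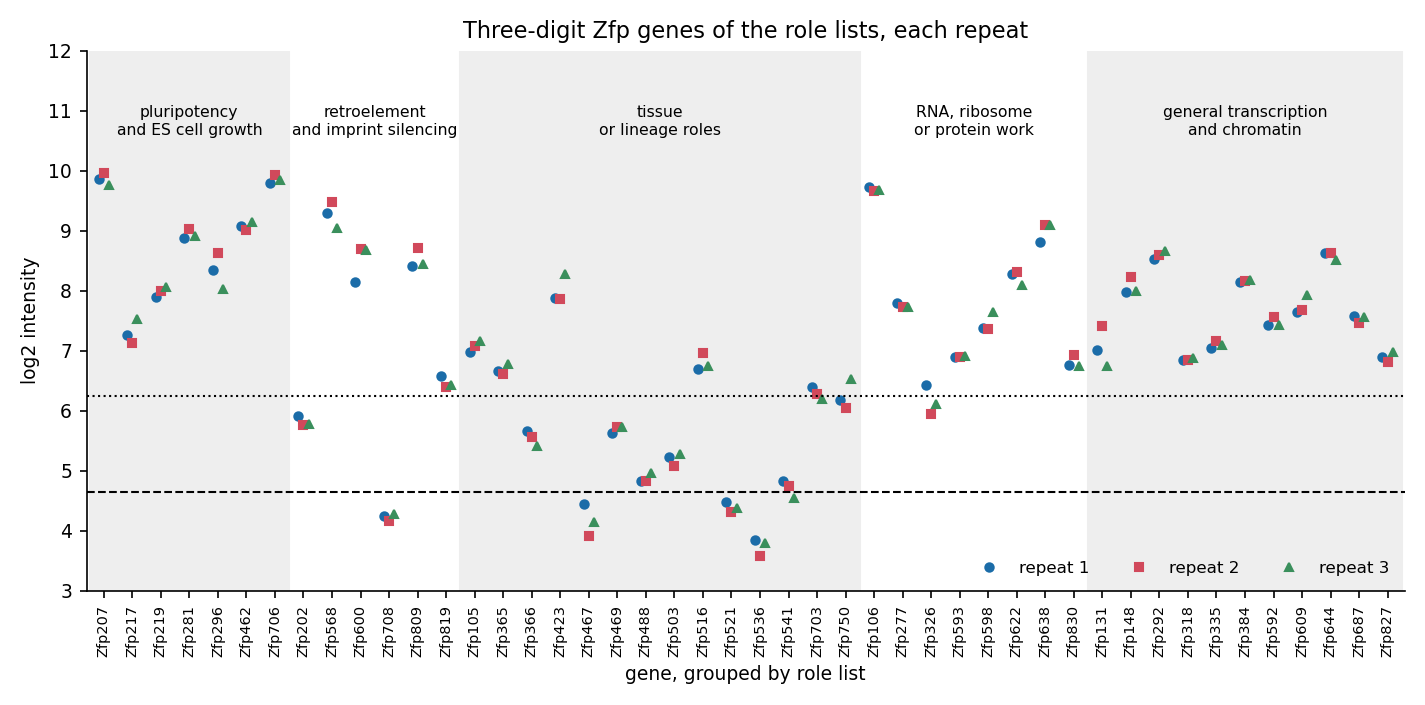
Log2 intensity (vertical axis) of the 46 genes of the 5 role lists (horizontal axis), 1 point for each repeat, with the mean main cutoff (dashed) and the mean cutoff from other silent families (dotted). Of these genes 41 were above the main cutoff on all 3 arrays, and 4 of the 5 that were not belong to the tissue list.

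The remaining 222 genes belong to no role list, and 184 of them (82.9%) were above background, with means from 4.77 to 9.92. Several gave strong signal, such as Zfp980 (9.92 ± 0.28), Zfp640 (9.92 ± 0.23), Zfp330 (9.84 ± 0.16), Zfp532 (9.61 ± 0.090), Zfp991 (9.56 ± 0.076) and Zfp871 (9.16 ± 0.18; SD, n = 3 each), each with a mean over 9 and named after the values were seen. Probe sets differ in how strongly their probes bind, so these genes are not ranked against each other. The 8 genes above background on 1 or 2 arrays were Zfp286, Zfp438, Zfp541, Zfp595, Zfp605, Zfp658, Zfp748 and Zfp931, with means from 4.60 to 4.96. Zfp931 differed most between repeats among them, at 4.34, 5.14 and 5.02.

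Where a gene had several probe sets they did not always read alike. Of the 268 genes 13 had 2 or 3 probe sets. In 11 of these all probe sets were above background, in Zfp672 none was, and in Zfp319 one was (5.94) and one was not (3.97). The probe sets of Zfp664 differed by 2.81 log2 units, those of Zfp825 by 1.72, and the median difference was 0.50.

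Three-digit Zfp genes that lie next to each other in the genome were compared. Neighbours were taken from the order of protein-coding genes in the RefSeq table of assembly GRCm38.p6, in which 266 of the 268 were placed. Among 68 pairs of direct neighbours both genes were above background in 41 pairs (60.3%), 1 gene in 25 (36.8%) and neither in 2 (2.94%). Among 14657 pairs of other direct neighbours outside the receptor families the shares were 59.1%, 29.8% and 11.1%. These shares were not tested, and mixed pairs are not shown to be particular to zinc finger genes. Of 105 genes with such a neighbour 83 (79%) were above background, and of 161 with none 141 (87.6%) were. Both stand beside 84% of all 268 genes and 71.4% of genes outside the receptor families, and their difference was not tested. The labels name no genome build for the array values, so no coordinates are given for the probe sets.

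There were 9 unbroken runs of at least 4 neighbours, which held 41 of the genes. In the longest, Zfp180 (7.44 ± 0.092), Zfp235 (5.71 ± 0.12), Zfp111 (6.97 ± 0.13), Zfp109 (6.19 ± 0.19) and Zfp108 (5.14 ± 0.084) were above background, while Zfp112 (4.20 ± 0.32) and Zfp114 (3.76 ± 0.12), which stand among them, were not (SD, n = 3 each). A run of 6 held Zfp457 (6.33), Zfp953 (5.31) and Zfp456 (4.93) above background on all 3 arrays. Its other members were Zfp595, above it on 1 array, and Zfp455 (2.60) and Zfp458 (4.34), above it on none. In 6 runs of 4 genes, 1 gene each was below background. That gene was Zfp472 (4.23) beside Zfp952 (4.77), Zfp763 (5.98) and Zfp563 (4.94), Zfp709 (3.71) beside Zfp882 (5.80), Zfp617 (6.17) and Zfp961 (8.98), and Zfp786 (4.10) beside Zfp398 (5.80), Zfp282 (5.48) and Zfp212 (7.56). In the other three runs it was Zfp811 (3.52) beside Zfp871 (9.16), Zfp799 (6.39) and Zfp870 (6.74), Zfp773 (4.23) beside Zfp954 (5.91), Zfp418 (6.29) and Zfp772 (4.90), and Zfp872 beside Zfp809, Zfp599 (7.34) and Zfp810 (5.28). In the remaining run Zfp524 (5.54), Zfp865 (5.88), Zfp784 (5.05, 4.83 and 5.11) and Zfp580 (6.46) were all above background.

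Wider groups, in which at most 5 other protein-coding genes separate 2 of the genes, were formed with a limit chosen after the data were seen. There were 15 such groups, and 81 of their 101 genes (80.2%) were above background, against 143 of the 165 genes outside them (86.7%) and 84% of all 268. Of genes outside the receptor families 71.4% were, and the difference by group was not tested. The largest held 14 genes from Zfp160 to Zfp945, of which 10 were above background and Zfp677, Zfp983, Zfp947 and Zfp758 were not on any array. In it Zfp229 read 8.12, 8.58 and 8.17 in repeats 1, 2 and 3, while Zfp983 read 3.17, 3.25 and 3.14. A group of 12 from Zfp708 to Zfp273 had 6 genes above background, and Zfp459 among them read 8.09, 7.91 and 8.32. A group of 7 from Zfp553 to Zfp689 was above background throughout, with means from 5.96 to 8.19. In another 7, Zfp568 was above background beside Zfp790 (6.48), Zfp940 (6.02), Zfp566 (7.16), Zfp382 (5.28) and Zfp146 (8.09), and Zfp420 (4.37 ± 0.27) was not (SD, n = 3).

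**Figure D3:**
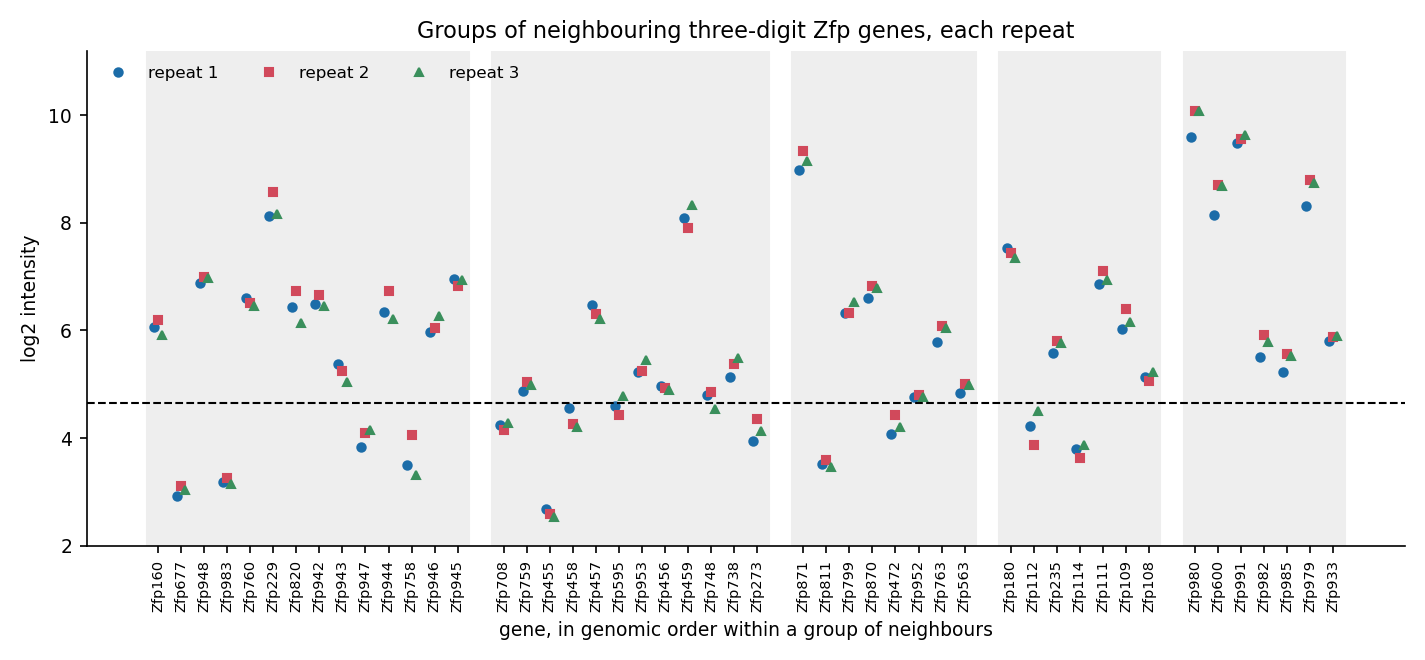
Log2 intensity (vertical axis) of genes in genomic order within 5 of the 15 groups of neighbouring three-digit Zfp genes, at most 5 other protein-coding genes apart (horizontal axis, grey bands), 1 point for each repeat and the mean main cutoff as a dashed line. Genes above and below the cutoff stand side by side within 4 of these groups, and in the group from Zfp980 to Zfp933 every gene is above it and lowest in repeat 1.

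The base composition before the transcription start was compared with the calls, since promoters rich in the dinucleotide CG are known to be active in many cell types. RefSeq start sites of assembly GRCm38.p6 were matched for 222 of the 268 genes (82.8%), and CG was counted in the 250 bases before the start, in the window with most CG where a gene had several. The median count was 13 in the 186 genes above background and 8.5 in the 36 that were not. Among 13627 other genes outside the receptor families it was 17 in those above background and 4 in those not above it. The share of three-digit Zfp genes above background differed less with CG than that of other genes did. With 0 to 9 CG, 64 of 85 three-digit Zfp genes (75.3%) were above background, against 2336 of 5143 other genes (45.4%). With 10 or more CG, 122 of 137 (89.1%) were, against 7557 of 8484 other genes (89.1%). With other silent families as background the low-CG shares were 32.9% and 15.2%, and the shares with 10 or more CG were 50.4% and 61.2%. These shares are descriptions and were not tested.

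Promoter windows of 5 genes show the range, with CG in capitals and each sequence written 5′ to 3′ on the gene's strand (RefSeq, GRCm38.p6). Zfp809 (chr9:22225453-22225702, plus strand) and its neighbour Zfp872 (chr9:22187916-22188165, plus strand) hold 11 and 15 CG, and are shown because Zfp809 read 8.41, 8.71 and 8.45 while Zfp872 read 3.74, 3.15 and 3.30. Zfp217 (chr2:170131221-170131470, minus strand) has 43 CG, the most in the role lists, and was above background. Zfp600 (chr4:146156577-146156826, plus strand) has 2 and was above background too. Zfp735 (chr11:73688528-73688777, plus strand) has 1 and was below it on every array.
Zfp809: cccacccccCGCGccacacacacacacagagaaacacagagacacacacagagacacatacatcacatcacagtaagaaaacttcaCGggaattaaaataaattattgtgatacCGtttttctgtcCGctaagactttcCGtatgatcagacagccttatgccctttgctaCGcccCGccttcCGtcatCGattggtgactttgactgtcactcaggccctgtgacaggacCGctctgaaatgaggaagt
Zfp872: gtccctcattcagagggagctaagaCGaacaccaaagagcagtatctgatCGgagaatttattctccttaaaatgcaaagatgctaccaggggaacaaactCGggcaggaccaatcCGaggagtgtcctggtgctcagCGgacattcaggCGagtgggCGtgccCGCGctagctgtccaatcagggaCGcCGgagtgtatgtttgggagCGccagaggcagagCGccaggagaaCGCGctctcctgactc
Zfp217: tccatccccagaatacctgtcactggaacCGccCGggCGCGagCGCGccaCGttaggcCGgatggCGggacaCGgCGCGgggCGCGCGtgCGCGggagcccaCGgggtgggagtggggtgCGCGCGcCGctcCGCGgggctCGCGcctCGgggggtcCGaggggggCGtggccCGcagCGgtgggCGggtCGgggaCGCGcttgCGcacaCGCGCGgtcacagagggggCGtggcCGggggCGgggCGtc
Zfp600: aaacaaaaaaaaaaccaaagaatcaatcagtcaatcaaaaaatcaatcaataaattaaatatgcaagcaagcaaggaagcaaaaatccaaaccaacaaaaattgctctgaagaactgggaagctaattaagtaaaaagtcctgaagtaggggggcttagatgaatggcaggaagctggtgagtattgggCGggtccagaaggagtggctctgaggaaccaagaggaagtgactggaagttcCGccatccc
Zfp735: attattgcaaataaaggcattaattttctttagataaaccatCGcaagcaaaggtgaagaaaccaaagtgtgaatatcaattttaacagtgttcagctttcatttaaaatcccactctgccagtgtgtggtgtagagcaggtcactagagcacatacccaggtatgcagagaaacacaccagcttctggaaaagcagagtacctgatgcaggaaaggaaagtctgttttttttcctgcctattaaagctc

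Of the neighbours Zfp809 and Zfp872, the one with more CG was below background. The window of Zfp600 differs from that of Zfp217 in being nearly free of CG, although both genes gave signal in every repeat.

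Short motifs of broadly acting factors were searched in the same windows on both strands, each on its own, so that 1 window can hold several. The ETS letters CCGGAAG were in 37 of 222 windows (16.7%), against 10.9% of the windows of other genes and 13.7% of those of other genes above background. The share was 16.7% both in three-digit Zfp genes above background and in those not above it. The SP and KLF letters GGGCGG were in 101 (45.5%), against 51.8% of other windows. The share was 48.9% in three-digit Zfp genes above background and 27.8% in those not above it. Among other genes it was higher in those above background as well (62.2%), so this split is not particular to the three-digit Zfp genes. The NRF1 letters GCATGCGC were in 12 (5.41%), against 3.54%. TGACGTCA, the cyclic AMP response element, was in 8 (3.6%), against 2.31%, the YY1 letters AAGATGGC in 5 (2.25%), against 1.62%, and the TATA box letters TATAAA in 12 (5.41%), against 8.81%. A match is a description of letters and not a shown binding site.

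**Figure D4:**
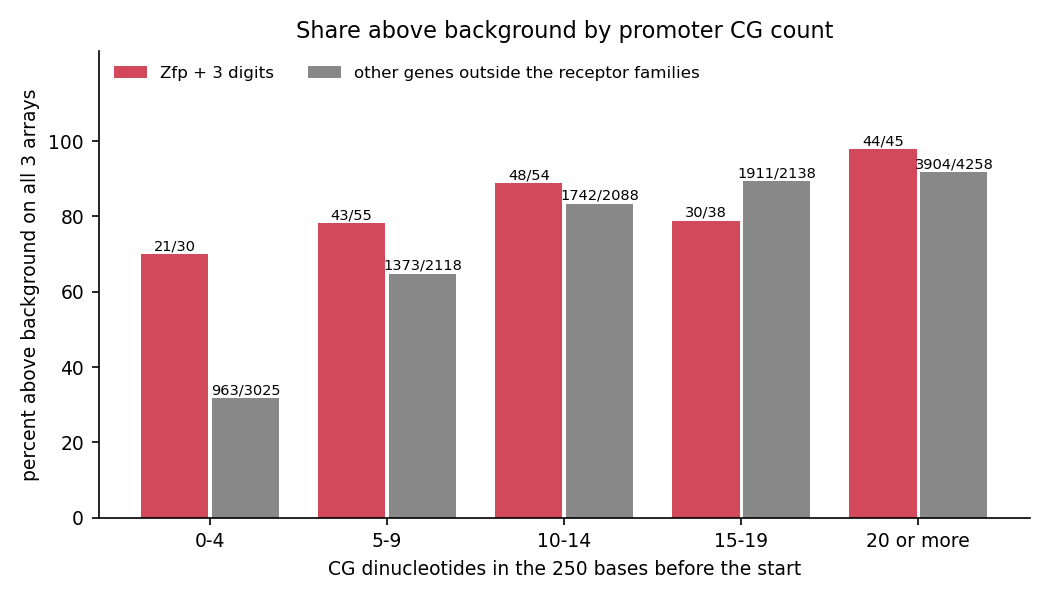
Percent of genes above background on all 3 arrays (vertical axis, from 0) by CG count in the 250 bases before the start (horizontal axis), for three-digit Zfp genes and other genes outside the receptor families, with the counts over each bar. With 0 to 4 CG the shares were 70% (21 of 30) and 31.8% (963 of 3025), and with 20 or more they were 97.8% and 91.7%.

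The repeats differed by small amounts in these genes, though the median SD was higher than over all genes above background. Among the 225 genes above background the median SD over 3 repeats was 0.118 log2 units, against 0.101 over all genes above background, and the 90th percentiles were 0.243 and 0.209. None of the 225 spanned more than 1 log2 unit, against 0.281% of all genes above background, so a count of none does not set them apart. More than 0.5 was spanned by 14 (6.22%), against 4.46% of all genes above background. When genes were compared within bins of 1 log2 unit in level, the median SD of the three-digit Zfp genes was the higher in 4 of 6 bins, which hold 177 of the 225 genes. Between log2 9 and 10 it was 0.13 in 12 three-digit Zfp genes and 0.0797 in 999 other genes. Between log2 8 and 9 the median SD was 0.148 in 26 three-digit Zfp genes and 0.0888 in 1793 other genes, and between 7 and 8, one of the bins with the lower value, it was 0.0887 in 34 and 0.0985 in 2445. These differences were not tested.

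No three-digit Zfp gene passed a test for varying between repeats beyond the trend of genes of its level. The test of each gene's variance with limma, adjusted by the Benjamini-Hochberg method, called 0 of 233 tested, and 22 of all 13596 genes tested (0.162%). With so low a share over all genes, a count of 0 does not set the three-digit Zfp genes apart. At an unadjusted p under 0.05 there were 23 of the 233 (9.87%), against 5.75% of all genes tested. The smallest adjusted p was 0.389, for Zfp980. Without repeat 2 the test called 1 of 232, Zfp980, with an adjusted p of 0.048, beside 34 calls over all genes (0.252%), and it rested then on 2 arrays.

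The 10 least even of the 225 genes had SDs from 0.28 to 0.37. Zfp959 read 5.66, 6.31 and 5.67 in repeats 1, 2 and 3, and Zfp951 averaged 5.35 ± 0.35 (SD, n = 3). Both were highest in repeat 2, as were Zfp131 and Zfp296, given above, Zfp553 (8.13, 8.49 and 7.94), Zfp820 (6.44, 6.74 and 6.13) and Zfp600 by a small margin. Among these 10 genes, picked by SD, repeat 2 lay above both other repeats in 7 genes. How often this held over the 225 genes or over all genes was not counted, so the 7 have no share to stand beside. The repeat farthest from the middle value was repeat 2, higher, in 4 genes, repeat 1, lower, in 4 and repeat 3, lower, in 2. Over the 225 genes these shares were 23.6%, 20% and 11.1%, and over all genes above background 20.5%, 16.3% and 14.8%. The difference was not tested. The summed fibroblast marker intensity was highest in repeat 2 (3849, against 2194 and 2207 in repeats 1 and 3), with 7 of the 10 markers highest there and Dcn, Lum and Pdgfra not. The ES cell marker sum (17100, 18389 and 16585 in repeats 1, 2 and 3) and the primitive endoderm marker sum (190, 207 and 203) were highest in repeat 2 too. The part of these sums in the gene values was not tested. Zfp617 read 5.74 in repeat 1, against 6.33 and 6.43, Zfp935 read 6.10 in repeat 1, against 6.53 and 6.64, and Zfp980 read 9.60, against 10.08 and 10.09. Zfp600 and these 3 genes were farthest out in repeat 1, and lower there.

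**Figure D5:**
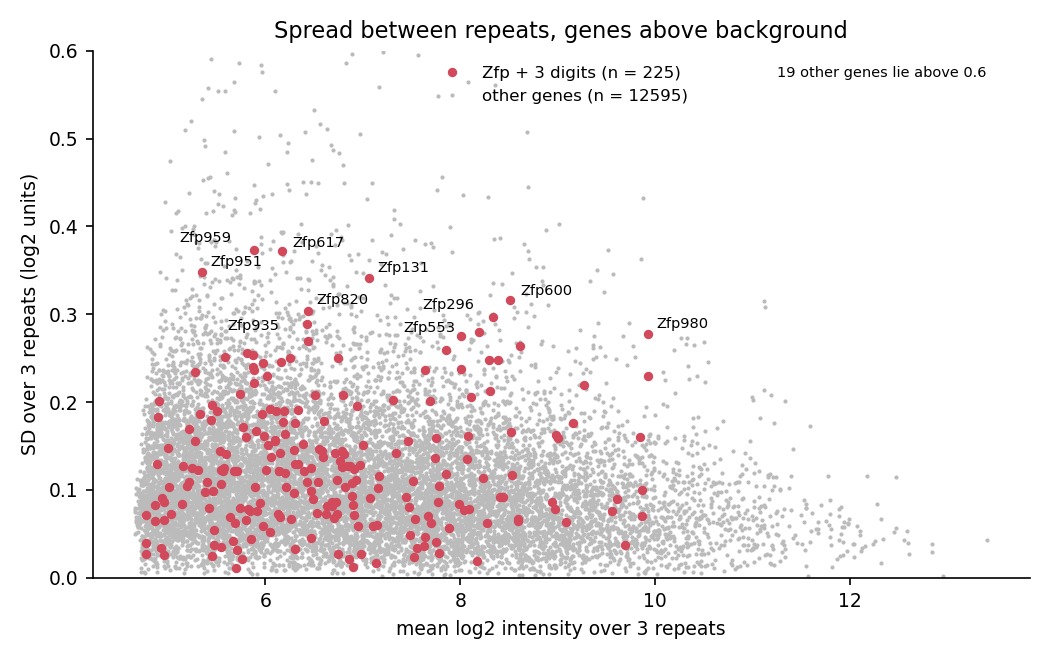
SD over 3 repeats in log2 units (vertical axis) against mean log2 intensity (horizontal axis) for the 225 three-digit Zfp genes above background and for other genes above background, with the 10 three-digit Zfp genes of largest SD named. The largest SD of the 225 is 0.373, while 19 other genes lie above the top of the plot at 0.6.

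Repeat 1 read slightly lower over the three-digit Zfp genes. Of the 225 genes above background 150 (66.7%) were lower in repeat 1 than the mean of the other repeats, against 53.0% of all genes above background. The median difference of repeat 1 was -0.054 log2 units over the 225 genes and -0.011 over all genes, and those of repeats 2 and 3 over the 225 genes were 0.028 and 0.030. All 3 values are smaller than the median SD of a gene, which does not measure the precision of a median over many genes. The difference from all genes was not tested. For repeat 1 the median ran from -0.073 with arrays centred on their medians to -0.043 with quantile normalization, where the median over all genes was 0.0087.

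Among the groups of neighbours, the one with the lowest median in repeat 1 runs from Zfp980 over Zfp600, Zfp991, Zfp982, Zfp985 and Zfp979 to Zfp933, and it was picked out after the values were seen. All 7 genes were above background, and each was lower in repeat 1 than in repeats 2 and 3. Zfp979 read 8.31 in repeat 1, against 8.79 and 8.74 in repeats 2 and 3, and Zfp982 read 5.51, against 5.92 and 5.78. Zfp985 stood at 5.23, against 5.57 and 5.52, Zfp991 at 9.48, against 9.56 and 9.63, and Zfp933 at 5.81, against 5.87 and 5.89. The median difference of repeat 1 over the 7 was -0.34 log2 units, with single genes between -0.55 for Zfp600 and -0.076 for Zfp933. Some other groups moved one way too, but as whole groups only against the mean of the other repeats, and with smaller medians. Nearest was the group from Zfp871 to Zfp563, where all 6 genes above background were lower in repeat 1 than that mean. Their median difference was -0.17 log2 units, and 5 of the 6 were lower than in both other repeats. In the group from Zfp329 to Zfp446 all 5 genes were lower in repeat 1 than the mean of the other repeats, with a median difference of -0.054 log2 units, and 1 of them was lower than in both other repeats. In the group from Zfp628 to Zfp580 all 6 genes were lower in repeat 2 than the mean of the other repeats, with a median of -0.081. In that from Zfp930 to Zfp866 all 4 were lower in repeat 3 by the same measure, with a median of -0.056. In neither group was every gene below both other repeats. Another 6 probe sets list at least 1 gene of the group from Zfp980 to Zfp933 together with further symbols. These 6 were lower in repeat 1 by 0.094 to 0.18 log2 units. Of all 38 probe sets shared with other symbols 36 were lower in repeat 1 by some amount, against 53.0% of all genes above background. Several of the 38 list the same symbols, some with identical values, so they are not separate readings. Of the 38 only 33 were above background. Whether the 7 genes share signal was not tested. Over the 218 genes outside the group 143 (65.6%) were lower in repeat 1, with a median difference of -0.048.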

How the data were processed

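Total RNA of 3 biological repeats of R1 cells was read on Affymetrix Mouse Gene 1.0 ST arrays. The deposited files hold an intensity for each probe set, not on a log scale. The submitters' processing notes name GCOS 1.4. How the authors corrected background, normalized and summarised probes is not given in the sources used here. The number of arrays limits the precision. The deposited intensities were taken to log2 as they stand. Of 26730 probe sets, 20764 list 1 gene symbol, 1419 list several and 4547 have none listed, by a platform annotation that can be old. Where a gene had several probe sets, their log2 values were averaged. The 268 genes have 284 probe sets, and 267 matched the RefSeq table (GRCm38.p6) with no change of symbol, Zfp640 being the exception. Nothing in the labels says how separate the repeats were beyond calling them biological, so p-values measure the spread between these samples.

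Background was set from olfactory and vomeronasal receptor genes on each array. Variance was tested with limma 3.58.1 in R 4.3.3, by setting each gene's variance over repeats against the prior variance at its level (trended and robust, F distribution, prior degrees of freedom 9.858). The 13596 genes tested passed background on 1 array or more, and p-values were adjusted by Benjamini-Hochberg, with 0.05 as the threshold. The test was tried on simulated data first. Python 3.11.15, numpy 2.4.6, pandas 2.3.3 and matplotlib 3.10.9 were used.

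The genes, role lists and tests were chosen with earlier results of these data known. Named by rule were all analysed members of the role lists, the 10 with the largest SD, the 3 just above and 3 just below the cutoff, and runs of 4 or more neighbours. Planned counts by KRAB box, finger number and protein identity were not made, as no protein table was used here. Motifs, neighbour groups and the comparison with other neighbouring pairs were chosen after the data were seen. Alternatives were other cutoffs, normalizations, probe set rules and priors, and leaving out each repeat.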

Additional observations from a re-analysis of the deposited data

How the results depend on the processing

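The number of three-digit Zfp genes above background moved with the genes that set the background. It was 225 of 268 with the main cutoff, 181 at the 99th percentile of the receptor genes and 119 with other silent families, and 231 when 2 of the 3 arrays sufficed. It ran from 226 to 228 when a repeat was left out, and was 225 with quantile normalization or the highest probe set. The 24 silencing partners were above background under each of these alternatives. The count of genes past the variance test was 0 in every alternative, with 15 to 30 genes at an unadjusted p under 0.05 over all of them, except that it was 1 without repeat 2, and it ran from 0 to 1 over the repeats left out. The median SD lay between 0.116 and 0.122 under other scalings, filters and probe set rules, and between 0.0937 and 0.0985 with 1 repeat left out. The median difference of repeat 1 was negative in each alternative, and that of the 7 neighbours of Zfp980 ran from -0.41 to -0.28, an alternative added after seeing the data. The shares with 0 to 9 CG moved from 75.3% and 45.4% to 74.7% and 45.3% among genes with 1 promoter window, and to 56.5% and 25% at the 99th percentile, for three-digit Zfp genes and other genes. The shares by KRAB box were not run. No paired analysis was possible because the samples form 1 group.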

Other observations

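Probe sets that list a three-digit Zfp symbol together with other symbols were left out of all counts above. There were 38 of them, and 33 were above background on all 3 arrays. Among genes with probe sets of their own the share was 84% of the 268 and 71.4% of genes outside the receptor families. The count of 33 therefore does not set these probe sets apart from the 268 genes. The 6 that list a gene of the group from Zfp980 to Zfp933 had mean log2 intensities from 11.03 to 11.97, and 2 shared by Gm15446 and Zfp932 read 8.65, 8.81 and 8.73, and 8.33, 8.44 and 8.38, in repeats 1, 2 and 3. A probe set listing EU599041, Zfp936, Zfp975 and Zfp976 read 8.86, 9.49 and 8.97. Of the 38, 36 were lower in repeat 1 than the mean of the other repeats, against 53.0% of all genes above background. Several of them list the same symbols, some with identical values, so they are not separate readings. Which copy gave the signal of such a probe set was not tested.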
